A study of Mus musculus with 161 samples.

Results

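The clustered protocadherins were examined through the FLAG–CTCF peaks of mouse embryonic stem cells (mESCs) that overlap chr18:37050000-38050000 (mm9) by at least 1 base. The deposited list holds 49682 peaks, and 104 of them lie in this window of 1 Mb. They make up 0.209% of the list and 7.41% of the 1403 peaks of chromosome 18, of which the window covers 1.10%. In these cells the endogenous CTCF carries a degron that auxin activates (CTCF-AID). They also express Tir1, the protein through which auxin acts, and a full-length FLAG-tagged CTCF transgene under a TetO promoter driven by Rtta3G. They had received 500 µM auxin and 1 µg/ml doxycycline (dox) for 2 days, so that the tagged transgene stood in for the degraded protein. According to the paper, this transgene was expressed well below the level of the endogenous degron-tagged CTCF. Chromatin was precipitated with an antibody to FLAG in 2 libraries of 1 cell line, EN133.10, and the list holds the peaks that overlapped between them. The other samples of the series (161 in all) do not enter here, and no control list without the transgene was used.

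The protocadherins are cadherin-like adhesion proteins of neurons, and the alpha, beta and gamma clusters lie one after another on the chromosome. Each alpha and gamma variable exon has its own promoter and is spliced to constant exons at the end of its cluster, whereas each beta gene is a single coding exon. A neuron expresses only some of these promoters, which gives it a surface identity, and CTCF is known to bind at many of them and at distant enhancers. CTCF reads an asymmetric DNA motif through its zinc fingers, and the direction in which the motif points sets the side on which CTCF holds cohesin, the complex that extrudes DNA loops.

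A matrix of the CTCF motif was learnt from 48278 peaks of all other chromosomes and is summarised by the following consensus of 19 bases, shown because orientation is read from it. Capitals mark positions at which 1 base was found in at least 70% of the matches, and n marks positions without a base in the majority.

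Consensus, forward strand: gCCAgnAGaGGGCgnnana

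A match is called forward when this strand reads along the plus strand, in the direction in which all the protocadherin exons are transcribed, and reverse otherwise.

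The window was among the densest stretches of the peak list. Tiles of 1 Mb laid across the genome held 18.7 peaks on average (SD 18.9 over 2650 tiles), with a median of 13 and a 99th percentile of 81. The 104 protocadherin peaks were thus 5.55 times the mean tile, and 3 tiles, or 0.113%, held as many or more. The neighbouring stretches of 1 Mb held 53 peaks before the window and 47 after it. At the edges, the last peak before the window was centred 18129 bases outside it and the first peak within 39752 bases inside it. At the other end the last peak within was centred 3178 bases from the edge and the next peak 17901 bases beyond it. Both edges therefore fall between peaks, and counting by peak centre gave 104 as well.

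**Figure D1:**
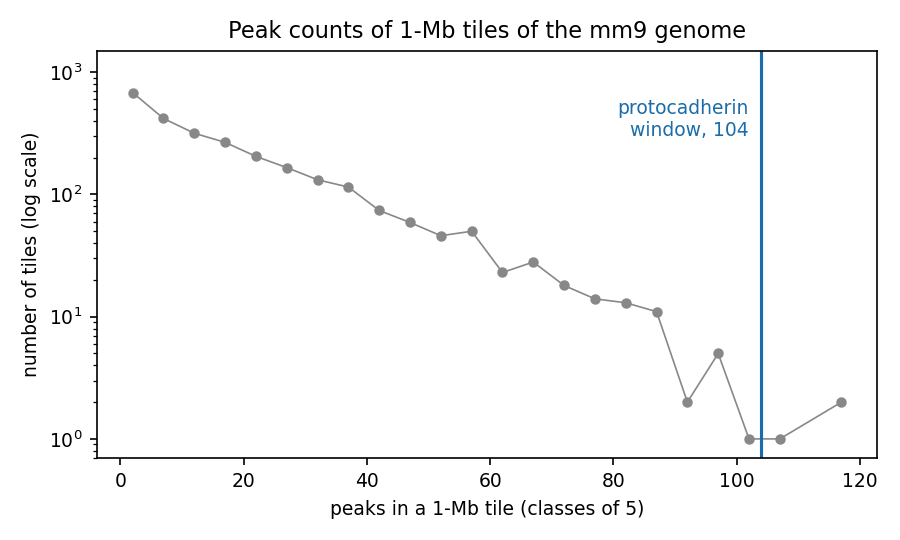
Number of 1-Mb tiles (log scale) against the number of FLAG–CTCF peaks in a tile, in classes of 5; the vertical line marks the protocadherin window. The line at 104 peaks stands to the right of nearly all of the 2650 tiles, whose largest count was 116.

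The peaks were unevenly shared out within the window. In successive segments of 100 kb the counts were 12, 8, 0, 2, 12, 19, 9, 10, 20 and 12. The empty segment covers the last alpha exon and the alpha constant exons. The segment with 20 peaks lies in the gamma cluster, and 0.0417% of the 26388 tiles of 100 kb in the genome held as many. Per Mb, the density was 92.3 over the alpha variable exons (20 peaks in 216.8 kb), 156 over the beta genes (40 peaks in 256.4 kb) and 193 over the gamma variable exons (31 peaks in 160.8 kb). Between the alpha exons and Pcdhb1 there were 2 peaks in 118 kb, between Pcdhb22 and the first gamma exon 1 peak in 140.6 kb, and after the last gamma exon, across the gamma constant exons and the end of Diap1, 10 peaks in 68.06 kb. Diap1, a formin that nucleates actin filaments, lies next to the gamma cluster on the opposite strand.

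**Figure D2:**
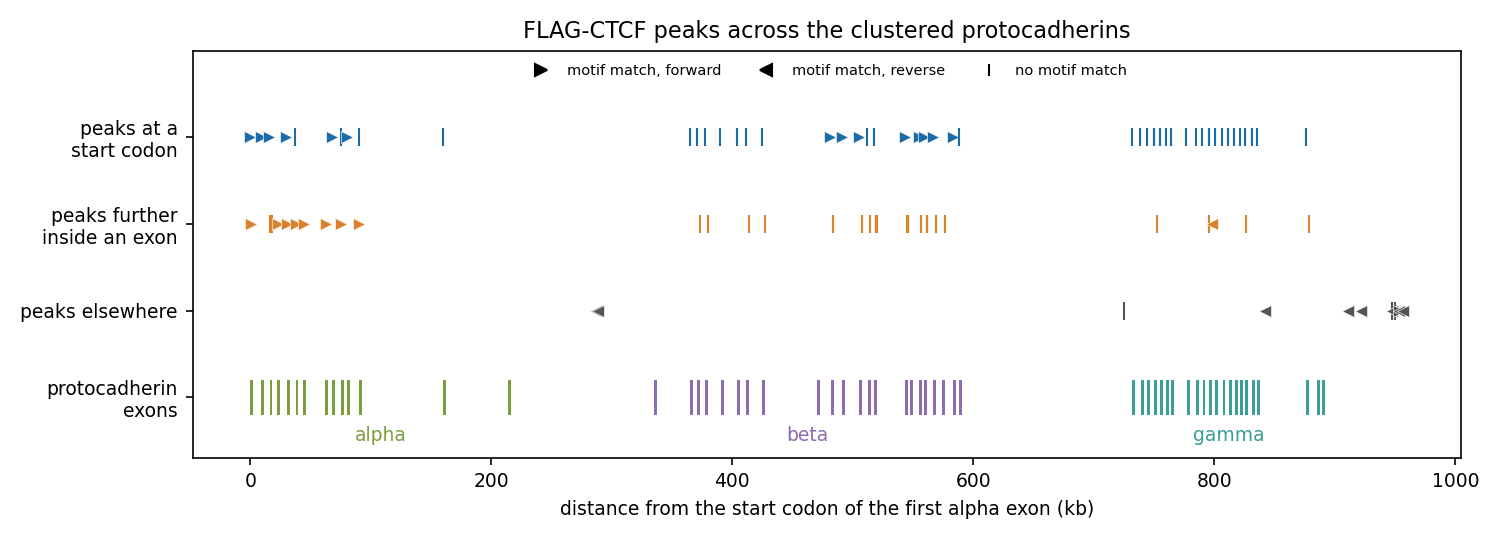
Position of the 104 peaks, in kb from the start codon of the first alpha exon, in 3 rows by their place relative to the protocadherin exons, which are drawn in the lowest row. Triangles point right for a forward and left for a reverse motif match, and ticks are peaks without a match; peaks follow the exons, with reverse matches at the far right and between the alpha and beta exons.

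The spacing was short and was not regular. Neighbouring peak centres lay 4.2 kb apart in the median (103 gaps), against 15.1 kb in the whole list. The middle 50% of gaps ran from 0.824 to 7.04 kb in the window and from 3.56 to 45.1 kb in the list. Gaps of 3 to 10 kb made up 38.8% of the gaps in the window and 18.1% in the list. Gaps of less than 200 bases, at which peaks overlap, made up 16.5% and 9.28%. The coefficient of variation of the gaps, which is the SD divided by the mean and is low for evenly spaced points, was 2.29. Among 1549 tiles with at least 10 peaks its median was 1.28, and 98.4% of the tiles had a value as low as that of the window or lower. The window has 5 gaps of more than 50 kb, which add up to 464.8 kb. Over the other 98 gaps the coefficient was 1.23, and the median of the tiles, treated in the same way, was 0.98. The longest gap, 137.3 kb, ran from the peak at Pcdhb22 to the peak before 3222401L13Rik and holds Slc25a2, a mitochondrial ornithine carrier gene, and Taf7, which encodes a subunit of the general transcription factor TFIID. The next, 127.5 kb, ran from the thirteenth alpha exon past the last alpha exon and the alpha constant exons.

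**Figure D3:**
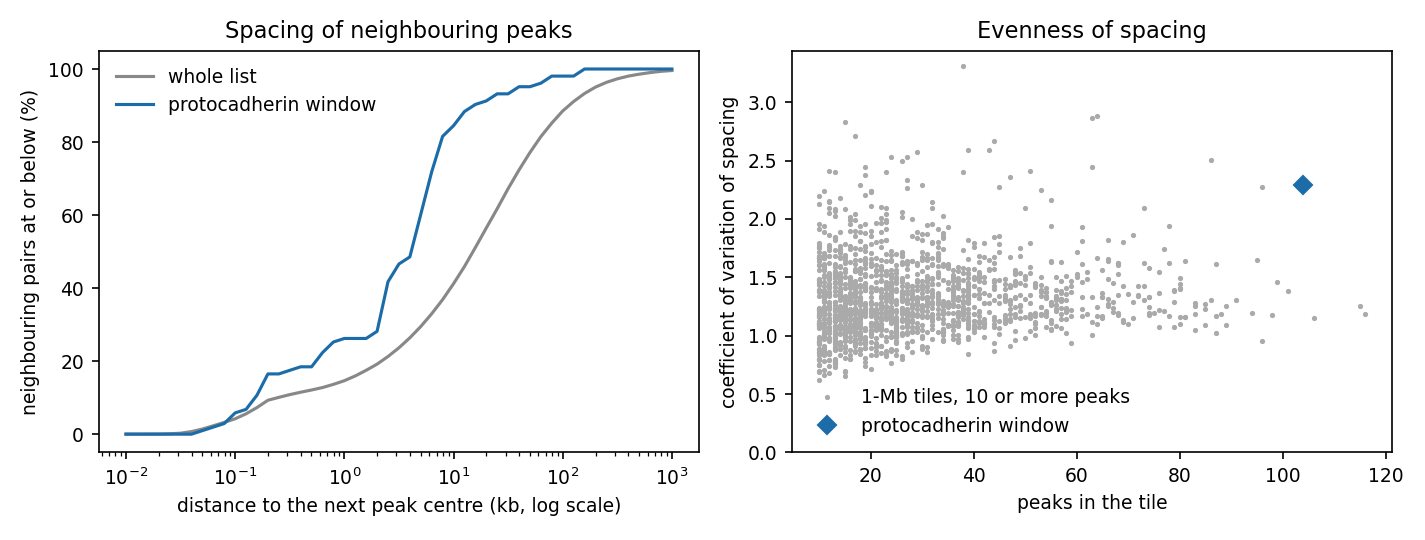
Left, the percentage of neighbouring peaks at or below a given distance (kb, log scale) in the window and in the whole list; right, the coefficient of variation of spacing against the number of peaks for 1-Mb tiles and for the window (diamond). The window is shifted to short distances, and its coefficient of variation of 2.29 is above most tiles.

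Within the clusters the coefficient of variation was 1.83 over the alpha exons, 1.63 over the beta genes and 1.27 over the gamma exons. The starts of the exons themselves followed each other at a median of 7.44 kb in alpha, 7.79 kb in beta and 5.34 kb in gamma, with coefficients of variation of 1.26, 0.842 and 1.04. When 1 peak per start was kept, neighbouring start peaks lay 9.03, 9.74 and 5.35 kb apart in the median, with coefficients of 1.18, 0.946 and 1.07. Starts without a peak were skipped, which left 9, 17 and 19 steps between peaks against 13, 21 and 21 between exon starts.

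What recurred was the position of a peak on its exon. The window holds 58 long open reading frames with similarity to annotated protocadherins, 14 alpha, 22 beta and 22 gamma, which are the numbers of genes that RefSeq lists for these families. The beta frames carry the names of the annotated genes they overlap, and the alpha and gamma frames are numbered here along the chromosome, because the mm9 annotation joins most of them into the gene models Pcdha11 and Pcdhgc5. Of the 104 peaks, 53 were centred between 500 bases before and 100 bases after a start codon, 37 further inside one of these exons, and 14 elsewhere. At least 1 peak lay on 52 of the 58 exons, and 48 exons (82.8%) had one at the start codon. Outside the window, 8.02% of 27779 annotated start codons had a peak in the same range. A peak further inside was found on 26 exons (44.8%), against 11% of 764 annotated coding exons of at least 2000 bases elsewhere in the genome. The exons with the 500 bases before them make up 19.0% of the alpha stretch, 24.9% of the beta stretch and 40.6% of the gamma stretch, and held all but 1 of the 91 peaks there.

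The peaks at start codons kept nearly the same distance in the 3 families. Their centres lay at a median of -183 bases from the start codon in alpha (SD 40.9, 10 peaks), -221 in beta (SD 23.9, 18 peaks) and -210 in gamma (SD 56.9, 25 peaks). Of all 53, 44 were within 50 bases of their common median of -210. In the gamma cluster 5 exons had 2 such peaks each, some of them overlapping, and the peak nearest to its start codon was centred 18 bases after it.

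The alpha exons had a second fixed place. Inside 9 of the 14 exons a peak was centred 458 to 494 bases after the start codon (SD 10.5). In 6 exons (alpha exons 1, 3, 5, 6, 10 and 12) it accompanied a peak at the start, 606 to 682 bases away, and alpha exons 4, 7 and 8 had the inner peak alone. Alpha exons 2, 9, 11 and 13 had the outer peak alone. Alpha exon 3, which is annotated as Pcdha3, had a further peak 2159 bases after its start codon. The last alpha exon had none.

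In the beta genes, 18 of which had a peak at the start, the inner peaks lay towards the other end of the exon. Their 22 inner peaks were centred between 1884 and 2245 bases after the start codon, or 148 to 518 bases before the end of the reading frame. They lay on 13 of the 22 genes, and 12 of these also had a peak at the start. On Pcdhb14, Pcdhb15 and Pcdhb18 there were 3 inner peaks each, and on Pcdhb4, Pcdhb10 and Pcdhb19 there were 2. Except on Pcdhb10, where the gap was 319 bases, neighbouring inner peaks of a gene were centred 129 to 184 bases apart. With a width of 200 bases they overlap, and whether they are separate sites was not tested. On Pcdhb14 the inner peaks sat at 1923, 2107 and 2236 bases, on Pcdhb15 at 1929, 2093 and 2245, and on Pcdhb18 at 1887, 2029 and 2206, so that the positions nearly coincided from gene to gene. A peak towards the end was not confined to beta: alpha exon 3 had one at 2159 bases, and gamma exons 4, 11 and 20 had one at 2032, 2071 and 2415 bases. The other inner gamma peaks lay at 116 and 296 bases, on gamma exons 11 and 17.

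Pcdhb2, Pcdhb5, Pcdhb6, Pcdhb11, Pcdhb21 and Pcdhb22 had a peak at the start alone, at -211, -235, -235, -237, -243 and -200 bases. Pcdhb20, which the annotation lists as a pseudogene, had an inner peak at 2057 bases and none at the start. Pcdhb1, Pcdhb9 and Pcdhb16 had no peak, nor did the last alpha exon and the last 2 gamma exons. Since reads that map to several places were discarded, and the list has no score, a missing peak cannot be told apart from one below the limit of calling.

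**Figure D4:**
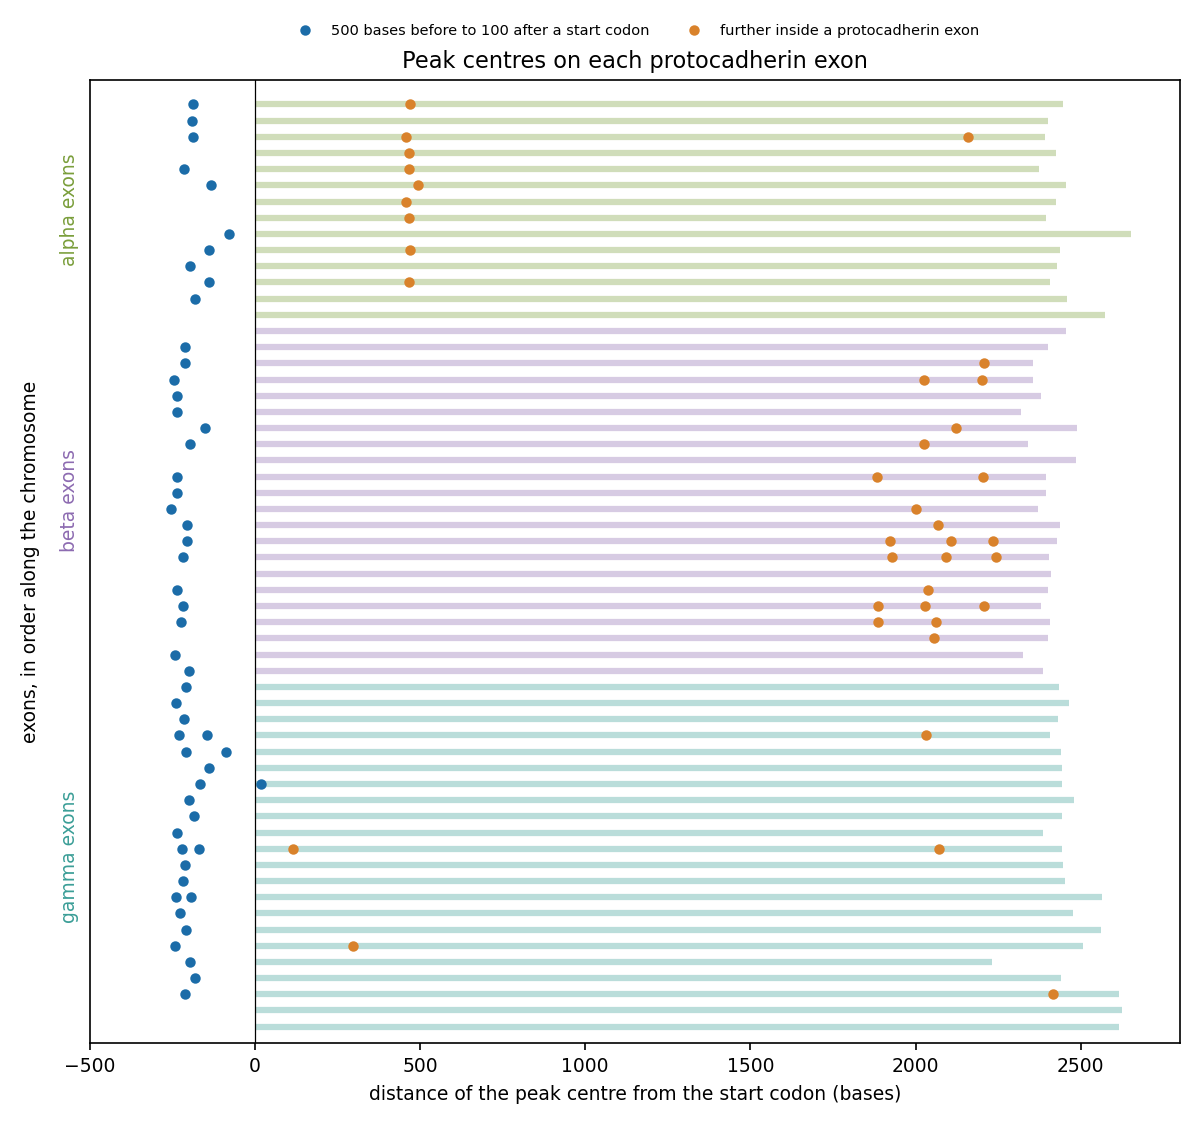
Centres of the peaks on each of the 58 protocadherin exons, in bases from the start codon, with exons in chromosomal order from top to bottom and drawn to their length. Peaks before the start codon line up in all 3 clusters, a further column stands 458 to 494 bases inside alpha exons, and inner beta peaks gather from 1884 to 2245 bases.

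The annotation of the genome placed the peaks in the same way. Coding exons held the centres of 32 of the 104 peaks (30.8%), against 4.59% of the whole list. Within 500 bases of an annotated transcript start there were 42 (40.4%), against 12.5% of the list. Outside coding exons, 10 peaks (9.62%, against 6.11% of the list) lay in untranslated or noncoding exon sequence. A further 39 (37.5%, against 41.7%) were intronic and 23 (22.1%, against 47.6%) intergenic. The intronic ones include those within Diap1 and those at or inside alpha and gamma exons that the annotation does not list, and most of the intergenic ones lay just before annotated beta genes.

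The protocadherin peaks matched the CTCF motif less well than most. With a threshold that 5% of regions 10 kb away from peaks pass, 34 of the 104 peaks (32.7%) had a match, against 79.2% of the list. The median score of the best match was 7.35 bits in the window and 15.9 bits in the list, where bits are the log2 ratio of the probability under the matrix to that of equal base frequencies. Where there was a match, it lay a median of 2.5 bases from the peak centre, against 3.5 bases in the list. The peak caller itself searches for a motif when it places peaks. The threshold matters here: with one that 1% of the regions pass, 4 protocadherin peaks (3.85%) and 30.2% of the list had a match. This stricter threshold was 19.5 bits, which is above the median best score of the list itself.

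The share with a match differed from family to family. Of the 10 peaks at alpha starts 6 had one, and so had 8 of the 9 inner alpha peaks near 467 bases, whose best scores ran from 7.68 to 19.9 bits. Of the 18 peaks at beta starts 8 had a match, and the best scores of all 18 ran from 6.86 to 15.5 bits, on both sides of the threshold of 8.64 bits. None of the 22 inner beta peaks reached it, with a median of 0.519 bits, nor did any of the 25 peaks at gamma starts, with a median of -0.637 bits. The highest scores lay just below the threshold, at 8.04 bits for inner beta peaks and 8.36 bits for gamma starts. The inner beta peaks with 8.04 bits were on Pcdhb3, Pcdhb4, Pcdhb10, Pcdhb14 and Pcdhb15, between 2200 and 2245 bases after the start codon. Of the 14 peaks away from the exons 11 had a match, and the median best score of all 14 was 15.7 bits.

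Orientation followed position. All 14 matches in the alpha cluster and all 8 in the beta cluster were forward. Both peaks between the alpha and the beta exons, centred 38946 and 39912 bases from the nearest transcript start, had reverse matches of 17.7 and 10.6 bits. The 2 matches in the gamma stretch were reverse, and so were 7 of the 8 after the last gamma exon, which lie at the end of the gamma gene model and within Diap1. Overlapping peaks there share a match, and with each position counted once 5 of 6 were reverse. Taken over the whole window, 23 of 34 matches (67.6%) were forward, or 23 of 32 positions (71.9%), against 50.1% of the matches in the list, and 12.9% of 1391 tiles with at least 10 matches had as large a share in 1 orientation. The split by cluster was drawn after the values had been seen and was not tested. Read without any threshold, the best match was forward in 20 of 20 alpha peaks and in 18 of 18 peaks at beta starts, against 50.0% of the list. It was forward in 17 of 25 peaks at gamma starts, 14 of 22 inner beta peaks, 2 of 5 inner gamma peaks and 2 of 14 peaks away from the exons. Forward best matches of inner beta peaks scored 2.79 bits or less. The highest-scoring inner beta peaks, at 8.04 bits on Pcdhb3, Pcdhb4, Pcdhb10, Pcdhb14 and Pcdhb15, were reverse. Sites of a family are related in sequence and do not count as separate observations. The 4 matches above the stricter threshold were 1 forward and 3 reverse, at 3 positions of which 1 was forward.

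**Figure D5:**
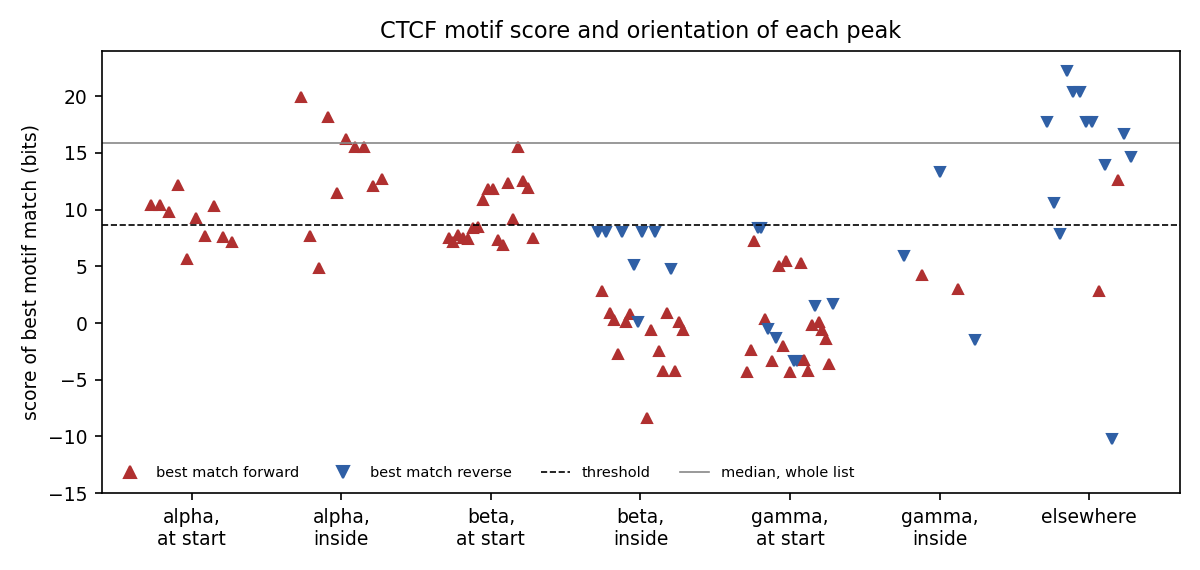
Score of the best CTCF motif match of each peak in bits, by family and place; triangles point up for a forward and down for a reverse match, the dashed line is the threshold of 8.64 bits and the grey line the median of the whole list, 15.9 bits. Alpha peaks and peaks at beta starts are all forward, inner beta peaks and gamma peaks at starts lie below the threshold, and peaks elsewhere are mostly reverse and high.

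Some of the peaks lay on sequence that recurs within the window. A stretch of 31 bases found again within the same Mb, on either strand, was present under 34 of the 104 peaks (32.7%), against 9.66% of the list. All 22 inner beta peaks had one, and in the median 25.9% of the stretches under such a peak were repeated. Among the inner alpha peaks 3 of 10 had one, and among the inner gamma peaks 3 of 5. Under the inner peaks of alpha exons 7 and 8, 68.2% and 78.2% of the stretches were repeated. At start codons it was 6 of 53 peaks, and among the 14 peaks away from exons none. Whether the shared sequence has a part in the calling of the inner peaks was not tested. In base composition, the peaks at alpha and beta starts had a median G and C content of 39.0% and 40.8%, those at gamma starts 49.0% and the inner beta peaks 57.0%, against 49.5% in the list. The median number of CpG dinucleotides in 200 bases was 5 at alpha starts, 4 at beta starts and 8 at gamma starts, against 3 in the list.

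Stretches as dense as the window looked different in other respects. The tiles with the most peaks lie on chromosomes 10 (116 and 115 peaks in neighbouring tiles) and 7 (106 peaks). Their median gaps of 4.94, 4.1 and 5.56 kb were close to that of the window, but their longest gaps were 59.5, 54.1 and 48.1 kb and their coefficients of variation 1.19, 1.25 and 1.15. Peaks in coding exons made up 6.03%, 11.3% and 16.0% there. A motif match was present under 72.4%, 85.2% and 69.8% of their peaks, and 48 of 84, 48 of 98 and 30 of 74 matches were forward. The protocadherin window thus had fewer peaks with a match, more in coding exons and less even gaps than each of these 3 tiles, which is given as a description of 1 list.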

How the data were processed

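FLAG ChIP-seq reads of 2 libraries were trimmed with fastq-mcf, aligned to mm9 with Bowtie2 and kept at a mapping quality of at least 30 (SAMtools), without PCR duplicates or multimapping reads. The authors called peaks on each library with GEM, kept those overlapping by at least 1 base and removed blacklisted regions. The deposited values are start and end coordinates, with no score, and all peaks but 1 span 200 bases. The peak list holds no read depth, read numbers of the libraries were not used here, and with 1 list for both libraries no test was made. The 8 repeated lines of the list are outside the window.

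Peaks were compared with 1-Mb tiles from each chromosome's start to its last peak, with GENCODE M1 (NCBIM37, the mm9 assembly) and with open reading frames of at least 2000 bases whose translation matched another annotated clustered protocadherin (blastp 2.17.0, E-value of 1e-10, at least 50% of the frame). Of 61 frames on the plus strand, 3 had no such match. Gene names were given to every protocadherin exon with its annotated name and to genes next to the clusters. Functions were tested on simulated data. Members and lists were chosen with earlier results of these data known. 5C matrices were not used.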

Additional observations from a re-analysis of the deposited data

How the results depend on the processing

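The list has no replicate values or scores, so no paired analysis was possible because the result comes from no test, and differences between settings are descriptions. The count of 104 was 77 when peaks within 1 kb were merged and 40 when peaks within 5 kb were merged. The ratio to the genome-wide density was 4.87 with peaks merged within 1 kb, 7.13 against the rest of its own chromosome and 8 against the median tile. The median spacing was 5.47 kb with peaks merged within 1 kb and 13.1 kb within 5 kb. The coefficient of variation was 2.33 between facing edges, 1.23 without gaps of more than 50 kb, 1.91 with peaks merged within 1 kb and 1.25 within 5 kb. The share of tiles with as low a coefficient was 97.2% after merging within 1 kb. At the stricter motif threshold, chosen after seeing the data as were the reading without a threshold, the removal of long gaps or repeated lines and the counting of shared matches once, 3.85% of the peaks had a match and 25% of the matches were forward.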
